A study of Homo sapiens with 21 samples.

Results

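The 48 genes described here encode the machinery with which a cell forms and releases its own extracellular vesicles (EVs): the ESCRT complexes, the syndecan-syntenin-ALIX path, tetraspanins, RAB GTPases and enzymes and scaffolds of the vesicle membrane. The rule that chose them names genes and uses no measured value, although earlier results of these data were known when it was written. All 48 were found among the 65065 genes of the count table, and 47 of them had enough counts to be tested. They were measured in HCT-116, an epithelial-like line from a human colorectal carcinoma, grown in DMEM with exosome-depleted serum, by poly(A) RNA sequencing of 21 libraries, 3 for each of 7 groups. In 3 groups the cells had received EVs from the serum of patients labelled HCC (HCC+) at 0.048, 0.24 or 1.2 mg/mL. In another 3 groups they had received EVs from the serum of healthy people (HCC-) at the same doses, and the blank cells had received none (0 mg/mL). Per the title of the series, the EVs were isolated with the GlyExo-Capture method. The labels do not give the time of exposure, the number of people whose serum was used or whether libraries of the same group stem from separate cultures. The p-values therefore measure only the spread between these libraries, which may be technical.

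EVs are membrane particles that carry protein and RNA between cells. Those called exosomes form as small vesicles that bud into a late endosome, which then fuses with the plasma membrane. In one route the ESCRT complexes act in turn: ESCRT-0 gathers ubiquitinated cargo, ESCRT-I and ESCRT-II bend the membrane, ESCRT-III filaments pinch off the vesicle, and the ATPase VPS4 takes the filaments apart. Other routes use syntenin and ALIX with syndecans, tetraspanins or the lipid ceramide, and RAB27 proteins then dock the loaded endosome at the cell surface.

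The libraries held 31219343 to 64012757 counts. The 48 genes took 0.507% of the counts on average in HCC+ libraries at 1.2 mg/mL, 0.520% in HCC- libraries at 1.2 mg/mL and 0.472% in blank libraries. Levels are given as CPM, counts scaled by library size with TMM factors, and a value after ± is the SD of 3 libraries or, for a log2 fold change, its SE. A gene is said to rise or fall, or to be called higher or lower, where the Benjamini-Hochberg adjusted p of edgeR's quasi-likelihood test over all tested genes was under 0.05. On a principal component analysis of all genes, blank replicate 1 lay apart on the second component, at 42.8 against -26.5 to 29.7 for the other libraries. Of 10 markers of colorectal epithelium, EPCAM, KRT8, KRT18, KRT19, CDH1, CDX2 and ELF3 were expressed at 18.2 CPM or more on average with either source at 1.2 mg/mL and in the blank, while VIL1, CEACAM5 and LGR5 averaged under 0.3 CPM. EPCAM was at 269 ± 16.5 CPM with HCC+ EVs at 1.2 mg/mL, 243 ± 27.1 with HCC- EVs and 301 ± 12.5 in the blank. EPCAM, KRT8 and KRT18 fell with HCC- EVs at 1.2 mg/mL (log2 -0.31, -0.27 and -0.46), CDX2 and LGR5 rose with HCC- EVs, and ELF3 rose with both sources (log2 0.74 with HCC+ and 0.96 with HCC- EVs).

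Per gene length, as TPM, counts per length scaled to the same sum in each library, the highest of the 48 genes in blank cells was RAB7A, the GTPase of late endosomes and lysosomes, at 349.9 ± 3.22 TPM. CAV1, the coat protein of caveolae, followed at 265 ± 14.3 TPM, CLTC, the clathrin heavy chain, at 246 ± 21.7, and the ESCRT-III subunit CHMP1A at 218 ± 23.9, and the SDs of CAV1 and CLTC and of CLTC and CHMP1A overlapped. Within each remaining role the highest means were those of HGS (68.6), UBAP1 (77.6), VPS25 (67.6), VPS4B (47.8), SDC1 (109.7) and CD151 (147 TPM). The lowest means in their roles were those of STAM2 (10.9), MVB12B (6.56), VPS36 (19.8), CHMP4A (0.97), VPS4A (40.8), PDCD6IP (77.0), RAB27B (1.80) and SMPD3 (0.632 TPM). Some of these orders lay within the SDs: SDC1 had 109.7 ± 7.74 TPM beside 109 ± 1.00 for SDC4, and VPS4A had 40.8 ± 1.96 TPM beside 40.9 ± 2.77 for VTA1 and 47.8 ± 7.12 for VPS4B. TSPAN8, a tetraspanin, held 46 counts over all 21 libraries, 16 of them with HCC+ EVs at 1.2 mg/mL, 14 with HCC- EVs at 1.2 mg/mL and 2 in the blank, and was not tested.

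At the highest dose the calls among the vesicle genes went in both directions, as did those among all tested genes. With HCC+ EVs at 1.2 mg/mL, 7 of the 47 tested genes rose and 9 fell relative to the blank, where 33% of all tested genes were called (15.6% higher, 17.4% lower). With HCC- EVs at 1.2 mg/mL, 13 rose and 22 fell, 35 of the 47 in all, where 53.3% of all tested genes were called (24.8% higher, 28.5% lower). Of the 47, 6 rose with both sources (UBAP1, SDCBP, CD9, CD82, SMPD3 and CAV1), 8 fell with both (VPS37A, MVB12A, VPS25, CHMP2A, CHMP3, VTA1, PDCD6IP and RAB7A) and none was called in opposite directions. Both comparisons use the same blank libraries. Of the shared rises, SDCBP, CD9, CD82, SMPD3 and CAV1 were called with both sources in every alternative way of processing tried. Of the shared falls, only MVB12A, CHMP2A and CHMP3 were. The changes were small: the median absolute log2 fold change was 0.16 with HCC+ EVs and 0.33 with HCC- EVs, beside 0.29 and 0.47 over all tested genes. Scaling to the total count alone, which adds 0.12 and 0.28 to the median log2 fold change of all tested genes, gave 13 higher and 4 lower with HCC+ EVs and 21 higher and 11 lower with HCC- EVs. With trends in GC content and length removed, the HCC+ count was 28 (11 higher, 17 lower), of which 14 were among the 16 called otherwise. Fewer cells that express a gene and less of its RNA per cell cannot be told apart in these bulk libraries.

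**Figure D1:**
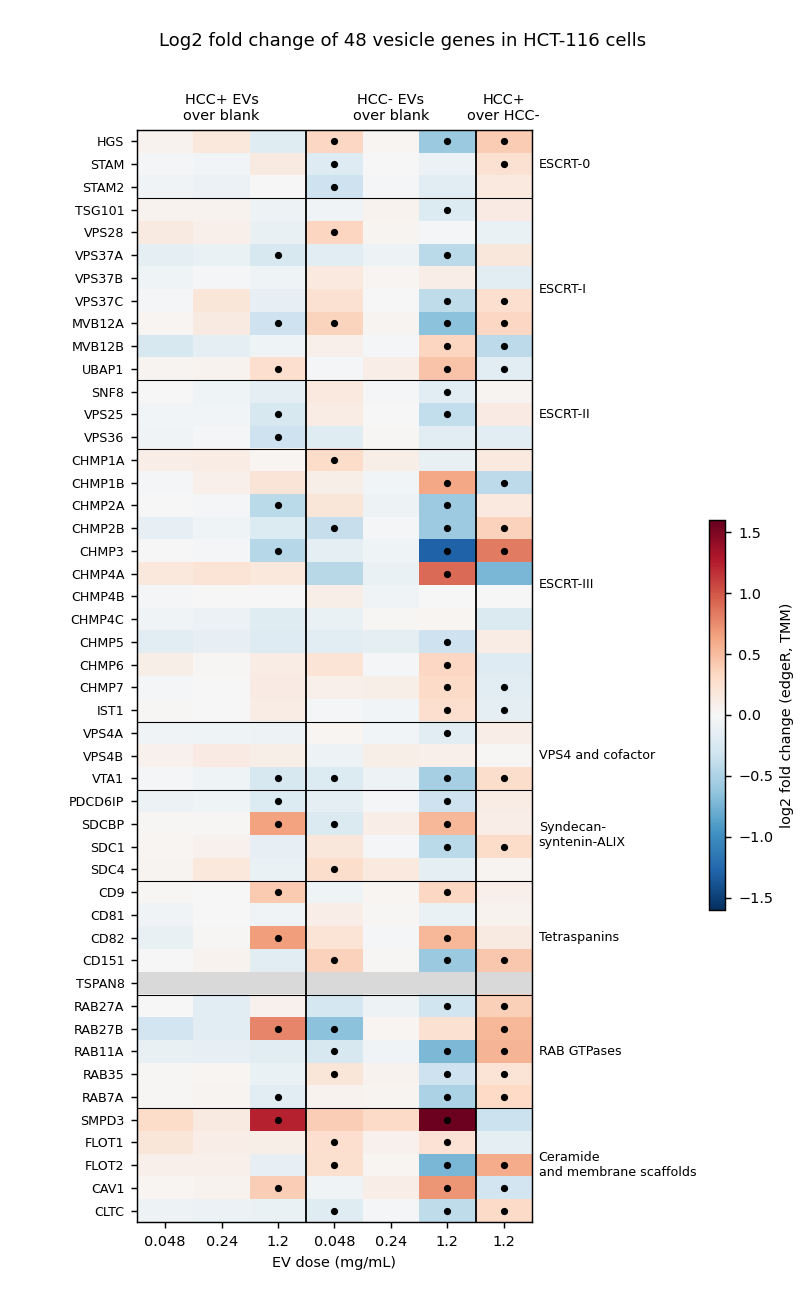
Log2 fold change (colour) of the 48 genes, in rows by role, for HCC+ EVs over blank and HCC- EVs over blank at each dose (mg/mL, low to high) and for HCC+ over HCC- EVs at 1.2 mg/mL; black points mark adjusted p under 0.05 and grey TSPAN8, not tested. The columns at 1.2 mg/mL hold 16 points for HCC+ EVs and 35 for HCC- EVs over blank, and both columns at 0.24 mg/mL hold none.

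Among the 3 genes of ESCRT-0, the cargo-binding complex, HGS was the only one called against the blank at 1.2 mg/mL, and only with HCC- EVs. It had 156, 147 and 165 CPM with HCC+ EVs, 114, 132 and 108 CPM with HCC- EVs and 155, 205 and 173 CPM in the blank. All HCC- libraries lay below all others, while the HCC+ range overlapped that of the blank. The log2 fold change against the blank was -0.19 ± 0.08 with HCC+ EVs (not called) and -0.59 ± 0.08 with HCC- EVs (edgeR adjusted p = 3.47e-07). With trends in GC content and length removed, HGS was at log2 -0.43 with HCC+ and -0.91 with HCC- EVs. STAM was then at 0.30 with HCC+ and 0.17 with HCC- EVs, so the lack of a call with HCC+ EVs depends on the processing. HGS was higher with HCC+ than with HCC- EVs by log2 0.40 ± 0.08, as was its partner STAM by log2 0.24 ± 0.07, at 51.3 ± 3.76 against 43.3 ± 1.86 CPM; with total count scaling STAM was at 0.08 and was not called. STAM2 was called in no comparison at 1.2 mg/mL. Of the exon bases of HGS, 23.6% are shared with genes on the opposite strand, and no label states whether the counting used strand.

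ESCRT-I, which holds TSG101 with interchangeable partner subunits, had 1 gene that rose and 2 that fell with HCC+ EVs and 2 that rose and 4 that fell with HCC- EVs, of 8, beside the 33% and 53.3% called over all tested genes. MVB12A, one of these partners, had 35.7, 35.3 and 37.9 CPM with HCC+ EVs, 27.9, 28.8 and 30.0 CPM with HCC- EVs and 40.3, 53.0 and 43.6 CPM in the blank. The 3 groups did not overlap and were in the order HCC- below HCC+ below blank. The log2 fold change was -0.33 ± 0.08 with HCC+ EVs and -0.66 ± 0.08 with HCC- EVs (edgeR adjusted p = 0.00156 with HCC+ and 2.70e-08 with HCC- EVs). Its paralog MVB12B took the other direction with HCC- EVs: it had 16.7, 14.7 and 15.5 CPM with HCC+ EVs, 19.5, 19.7 and 23.4 CPM with HCC- EVs and 15.7, 17.7 and 15.6 CPM in the blank. The HCC- libraries lay above those of the HCC+ and blank groups, but HCC- 0.048 mg/mL replicate 3 reached 20.7 CPM. MVB12B rose by log2 0.35 ± 0.10 with HCC- EVs against the blank and was lower with HCC+ than with HCC- EVs, at log2 -0.42 ± 0.10.

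UBAP1, a partner subunit that directs ESCRT-I to endosomal sorting, rose with both sources. It had 81.7, 83.4 and 79.9 CPM with HCC+ EVs, 86.8, 94.4 and 97.7 CPM with HCC- EVs and 73.3, 70.6 and 60.0 CPM in the blank, with no overlap between the groups, and its log2 fold changes against the blank were 0.27 ± 0.07 with HCC+ and 0.45 ± 0.07 with HCC- EVs. VPS37A fell with both sources (log2 -0.26 ± 0.09 with HCC+ and -0.44 ± 0.09 with HCC- EVs), although the HCC+ and blank libraries overlapped, and VPS37C fell with HCC- EVs, at log2 -0.40 ± 0.10. TSG101 itself fell with HCC- EVs, at log2 -0.21 ± 0.06, at 63.1 ± 2.76 against 73.1 ± 1.89 CPM, a direction that turned with total count scaling (log2 0.07). VPS28 and VPS37B were not called at 1.2 mg/mL, with -0.12 and -0.07 with HCC+ EVs and -0.01 and 0.10 with HCC- EVs. Exon bases shared with other genes made up 27.4% in VPS37A and 29.4% in VPS37B.

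In ESCRT-II, the bridge from ESCRT-I to ESCRT-III, no gene rose. VPS25 fell with HCC+ EVs, at log2 -0.25 ± 0.08, and with HCC- EVs, at log2 -0.39 ± 0.08, with 45.1, 41.7 and 41.5 CPM with HCC+ EVs, 36.7, 41.0 and 39.2 CPM with HCC- EVs and 48.8, 53.6 and 50.5 CPM in the blank. Neither EV group overlapped the blank. VPS36 fell with HCC+ EVs (log2 -0.34 ± 0.08, 36.0 ± 2.44 against 45.5 ± 5.36 CPM) and had 40.3 ± 1.27 CPM with HCC- EVs, which was not called against the blank. SNF8 fell with HCC- EVs, at log2 -0.18 ± 0.07, and this turned to 0.10 with total count scaling.

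ESCRT-III, whose filaments cut the neck of the budding vesicle, held the largest fall and, with HCC- EVs, calls in both directions. With HCC+ EVs 2 of 12 genes fell and 0 rose, and with HCC- EVs 4 fell and 5 rose, beside 33% and 53.3% of all tested genes called. The HCC+ share was below that of all genes. CHMP3, a subunit that caps the filament with CHMP2A, had 34.9, 36.7 and 37.5 CPM with HCC+ EVs, 22.7, 19.9 and 18.5 CPM with HCC- EVs and 55.0, 45.9 and 49.5 CPM in the blank. Every HCC- library lay below every HCC+ library, and every HCC+ library below every blank library. The log2 fold change was -0.46 ± 0.08 with HCC+ EVs and -1.30 ± 0.08 with HCC- EVs (edgeR adjusted p = 2.00e-05 and 8.60e-15), and 0.84 ± 0.08 for HCC+ over HCC- EVs (adjusted p = 7.66e-10). It was called lower against the blank with both sources in every alternative tried.

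CHMP2A had 49.1, 44.8 and 50.5 CPM with HCC+ EVs, 39.8, 44.5 and 44.9 CPM with HCC- EVs and 60.3, 74.0 and 59.6 CPM in the blank. Both EV groups lay below the blank and overlapped one another, with log2 fold changes of -0.43 ± 0.08 with HCC+ and -0.59 ± 0.08 with HCC- EVs against the blank. CHMP2B, which acts at the same step, fell only where HCC- EVs were given (log2 -0.58 ± 0.10), and its difference between HCC+ and HCC- EVs was 0.37 ± 0.10, with overlapping libraries. CHMP5, which binds the VPS4 cofactor VTA1, fell with HCC- EVs, at log2 -0.33 ± 0.08, and its value turned to 0.07 when trends with GC content and gene length were removed.

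CHMP1B, which with IST1 forms filaments on the outside of membrane tubules, rose with HCC- EVs. It had 31, 30.8 and 27.2 CPM with HCC+ EVs, 38.5, 36.8 and 43.2 CPM with HCC- EVs and 25.2, 28.0 and 24.1 CPM in the blank. The HCC- libraries lay above all others and the HCC+ range overlapped the blank. The log2 fold change was 0.20 ± 0.09 with HCC+ EVs (not called), 0.62 ± 0.09 with HCC- EVs (edgeR adjusted p = 3.32e-07) and -0.41 ± 0.08 for HCC+ over HCC- EVs. With GC and length trends removed, CHMP1B was at log2 0.40 with HCC+ and 0.94 with HCC- EVs against the blank. IST1 rose with HCC- EVs by log2 0.27 ± 0.05, at 170.2 ± 9.10 against 141 ± 1.91 CPM, and CHMP7, known for sealing the nuclear envelope, by log2 0.31 ± 0.06, at 90.9 ± 2.28 against 73.3 ± 2.11 CPM. CHMP6, which receives the signal from ESCRT-II, rose with HCC- EVs by log2 0.33 ± 0.12, with an overlap of the libraries, and 21.5% of its exon bases are shared with genes on the opposite strand. CHMP1A, CHMP4B and CHMP4C, of which the CHMP4 proteins form the main filament, were not called against the blank at 1.2 mg/mL with either source. CHMP4A was called higher with HCC- EVs (log2 0.91 ± 0.32) at 1.38 ± 0.210 against 0.730 ± 0.366 CPM, but 68.8% of its exon bases are shared with another gene on the same strand, so its counts are uncertain.

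**Figure D2:**
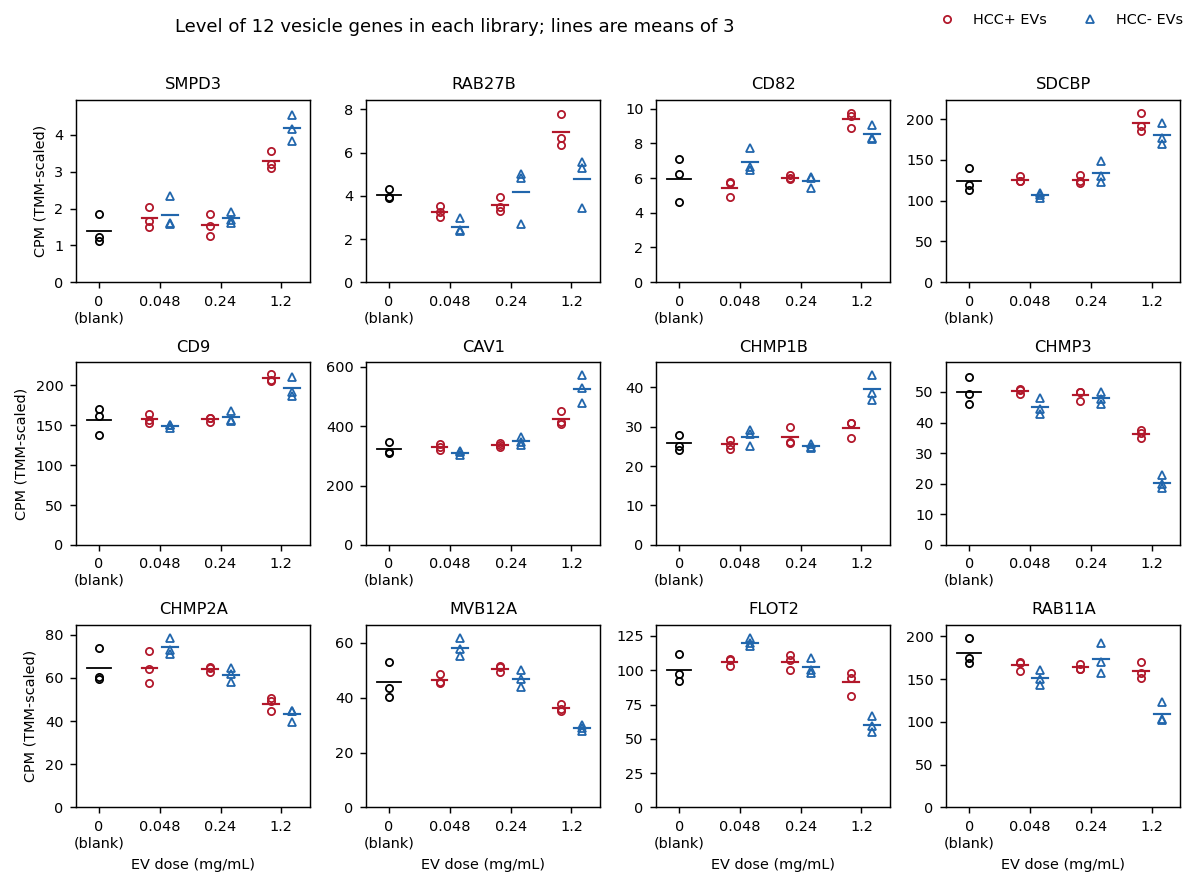
CPM of 12 vesicle genes in each library by EV dose (mg/mL), with black circles for the blank, red circles for HCC+ EVs and blue triangles for HCC- EVs; lines are means of 3 libraries and each axis starts at 0. Both sources depart from the blank at 1.2 mg/mL for SMPD3, CD82, SDCBP, CD9, CAV1, CHMP3, CHMP2A and MVB12A, RAB27B does so with HCC+ EVs, and CHMP1B, FLOT2 and RAB11A do so with HCC- EVs.

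Of the VPS4 group, the ATPases that recycle ESCRT-III and their activator, VTA1 fell with both sources. It had 73.7, 84.5 and 77.2 CPM with HCC+ EVs, 69.9, 62.8 and 61 CPM with HCC- EVs and 101, 88.8 and 90.8 CPM in the blank, with no overlap between the groups, and log2 fold changes of -0.25 ± 0.07 with HCC+ and -0.53 ± 0.07 with HCC- EVs against the blank. VPS4A fell with HCC- EVs, at log2 -0.19 ± 0.06, which turned to 0.10 with total count scaling. VPS4B was not called at 1.2 mg/mL with either source, at 0.10 with HCC+ and 0.08 with HCC- EVs. Of the exon bases of VPS4A, 21% are shared with genes on its own strand.

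The adaptor and the accessory protein of the syndecan route moved apart. SDCBP, which encodes syntenin-1, the adaptor that ties syndecans to ALIX, had 191, 208 and 185 CPM with HCC+ EVs, 195, 169.5 and 177 CPM with HCC- EVs and 140.4, 114 and 119.8 CPM in the blank. Every library at 1.2 mg/mL lay above every blank library, and the EV groups overlapped. The log2 fold change was 0.65 ± 0.07 with HCC+ EVs and 0.54 ± 0.07 with HCC- EVs (edgeR adjusted p = 5.86e-08 and 3.03e-07). PDCD6IP, which encodes ALIX, fell with both sources, at log2 -0.21 ± 0.06 with HCC+ and -0.33 ± 0.06 with HCC- EVs. With total count scaling the PDCD6IP values were -0.09 with HCC+ and -0.05 with HCC- EVs. With neither source was PDCD6IP called in every alternative tried. It had 172, 193 and 188 CPM with HCC+ EVs, 171, 169 and 170.5 CPM with HCC- EVs and 231, 198 and 213 CPM in the blank, and both EV groups lay below the blank. The syndecan SDC1, a heparan sulfate proteoglycan, fell with HCC- EVs, at log2 -0.43 ± 0.07, at 92.9 ± 7.90 against 125 ± 11.4 CPM, and was higher with HCC+ than with HCC- EVs by log2 0.30 ± 0.07. SDC4 was not called against the blank at 1.2 mg/mL, at -0.11 with HCC+ and -0.15 with HCC- EVs.

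Among the tetraspanins, membrane-spanning proteins that are enriched in EVs, CD9 and CD82 rose with both sources. CD9 had 214, 207 and 206 CPM with HCC+ EVs, 192, 187 and 210.5 CPM with HCC- EVs and 170.2, 161 and 137 CPM in the blank, and CD82, known as a suppressor of metastasis, had 8.89, 9.55 and 9.75 CPM with HCC+ EVs, 8.30, 8.23 and 9.07 CPM with HCC- EVs and 7.07, 6.2 and 4.59 CPM in the blank. For both genes every library at 1.2 mg/mL lay above every blank library, and the 2 sources overlapped. The log2 fold changes of CD9 were 0.42 ± 0.06 with HCC+ and 0.33 ± 0.06 with HCC- EVs, and those of CD82 were 0.67 ± 0.13 with HCC+ and 0.53 ± 0.13 with HCC- EVs. CD151, a partner of laminin-binding integrins, fell with HCC- EVs instead. It had 166, 157 and 161 CPM with HCC+ EVs, 114, 123 and 122 CPM with HCC- EVs and 165, 214 and 164 CPM in the blank, so that the HCC- libraries lay below all others. Its log2 fold change was -0.60 ± 0.08 with HCC- EVs and 0.43 ± 0.08 for HCC+ over HCC- EVs. CD81, like CD9 a common marker of EVs, was not called, at log2 -0.05 with HCC+ and -0.11 with HCC- EVs against the blank. Its values depended on the processing. They were -0.29 with HCC+ and -0.41 with HCC- EVs with GC and length trends removed, and 0.07 and 0.18 with total count scaling.

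The 5 RAB GTPases, the switches of endosome traffic, were all higher with HCC+ than with HCC- EVs at 1.2 mg/mL, where 22.6% of all tested genes were called higher. Scaled to the total count, all 5 kept this direction and RAB11A (log2 0.38) and RAB7A (log2 0.16) passed the test. RAB27B, which keeps endosomes docked at the cell surface, had 6.70, 7.77 and 6.37 CPM with HCC+ EVs, 5.56, 3.45 and 5.30 CPM with HCC- EVs and 4.30, 3.96 and 3.92 CPM in the blank. Every HCC+ library lay above every other library. RAB27B rose with HCC+ EVs by log2 0.78 ± 0.19 (edgeR adjusted p = 0.00148), was at 0.24 ± 0.19 with HCC- EVs (not called), and was higher with HCC+ than with HCC- EVs by log2 0.54 ± 0.18. RAB27A, which docks endosomes, was not called with HCC+ EVs (log2 0.06) and fell with HCC- EVs, at log2 -0.32 ± 0.12.

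RAB11A, the GTPase of recycling endosomes, had 151, 170.5 and 157 CPM with HCC+ EVs, 123, 102 and 104 CPM with HCC- EVs and 198, 168 and 174 CPM in the blank. The HCC- libraries lay below all others and the HCC+ range overlapped that of the blank. The log2 fold change was -0.17 ± 0.08 with HCC+ EVs (not called), -0.72 ± 0.08 with HCC- EVs (edgeR adjusted p = 1.71e-09) and 0.54 ± 0.08 for HCC+ over HCC- EVs. RAB7A, which sends late endosomes to the lysosome, fell with both sources, at log2 -0.18 ± 0.05 with HCC+ and -0.50 ± 0.05 with HCC- EVs. It had 258, 264 and 272 CPM with HCC+ EVs, 211, 214 and 209.9 CPM with HCC- EVs and 301, 308 and 291 CPM in the blank, with no overlap between the groups. RAB35, which acts in recycling and vesicle docking, fell with HCC- EVs, at log2 -0.33 ± 0.07, and was higher with HCC+ than with HCC- EVs by log2 0.22 ± 0.06.

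The largest rise of any of the 47 genes against the blank was that of SMPD3, which encodes neutral sphingomyelinase 2, the enzyme that makes ceramide at the endosome membrane. SMPD3 had 3.56, 3.21 and 3.10 CPM with HCC+ EVs, 4.17, 3.82 and 4.55 CPM with HCC- EVs and 1.22, 1.85 and 1.12 CPM in the blank. All libraries at 1.2 mg/mL lay above all blank libraries, and the HCC- libraries above the HCC+ libraries. The rise was 2.34-fold with HCC+ EVs (log2 1.23 ± 0.21, edgeR adjusted p = 3.77e-05) and 2.97-fold with HCC- EVs (log2 1.57 ± 0.21, adjusted p = 1.82e-07), and the difference of HCC+ over HCC- EVs, -0.35 ± 0.19, was not called. CAV1 rose with both sources and more with HCC- EVs. It had 415, 450.4 and 409 CPM with HCC+ EVs, 529, 478 and 573 CPM with HCC- EVs and 346, 313 and 311 CPM in the blank, with no overlap between groups, and its log2 fold change was 0.40 ± 0.06 with HCC+ EVs and 0.70 ± 0.06 with HCC- EVs over blank and -0.31 ± 0.06 for HCC+ over HCC- EVs.

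FLOT1 and FLOT2, flotillins that assemble with one another on membrane rafts, went apart with HCC- EVs. FLOT2 had 98.1, 81.3 and 94.3 CPM with HCC+ EVs, 59.7, 66.4 and 54.9 CPM with HCC- EVs and 97.5, 112 and 91.8 CPM in the blank, with all HCC- libraries below all others. Its log2 fold change was -0.14 ± 0.08 with HCC+ EVs (not called), -0.73 ± 0.08 with HCC- EVs (edgeR adjusted p = 1.44e-09) and 0.60 ± 0.08 for HCC+ over HCC- EVs. FLOT1 rose with HCC- EVs by log2 0.24 ± 0.07, at 83.8 ± 5.23 against 71.1 ± 4.36 CPM, and was not called with HCC+ EVs (log2 0.09). CLTC, which forms the coat of clathrin vesicles, fell with HCC- EVs, at log2 -0.41 ± 0.05, at 688 ± 27.0 against 916 ± 65.6 CPM, and was higher with HCC+ than with HCC- EVs by log2 0.31 ± 0.05.

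A ratio of 2 genes within a library does not depend on how libraries are scaled. FLOT2 over FLOT1, in counts per length, was 1.15, 1.08 and 1.16 with HCC+ EVs at 1.2 mg/mL, 0.717, 0.738 and 0.582 with HCC- EVs at 1.2 mg/mL and 1.33, 1.38 and 1.26 in the blank. The 3 groups did not overlap. CHMP1B over CHMP1A was 0.139 ± 0.0151 with HCC+ EVs, 0.205 ± 0.0205 with HCC- EVs and 0.123 ± 0.00802 in the blank, and MVB12B over MVB12A was 0.179 ± 0.0131 with HCC+ EVs, 0.299 ± 0.0208 with HCC- EVs and 0.150 ± 0.0119 in the blank. For both pairs the HCC- libraries lay above all libraries of the other 6 groups. CD9 over CD151 was 1.19 to 1.23 with HCC+ EVs, 1.43 to 1.62 with HCC- EVs and 0.704 to 0.965 in the blank. No test was run on these ratios, which show unequal change and not which gene of a pair moved.

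**Figure D3:**
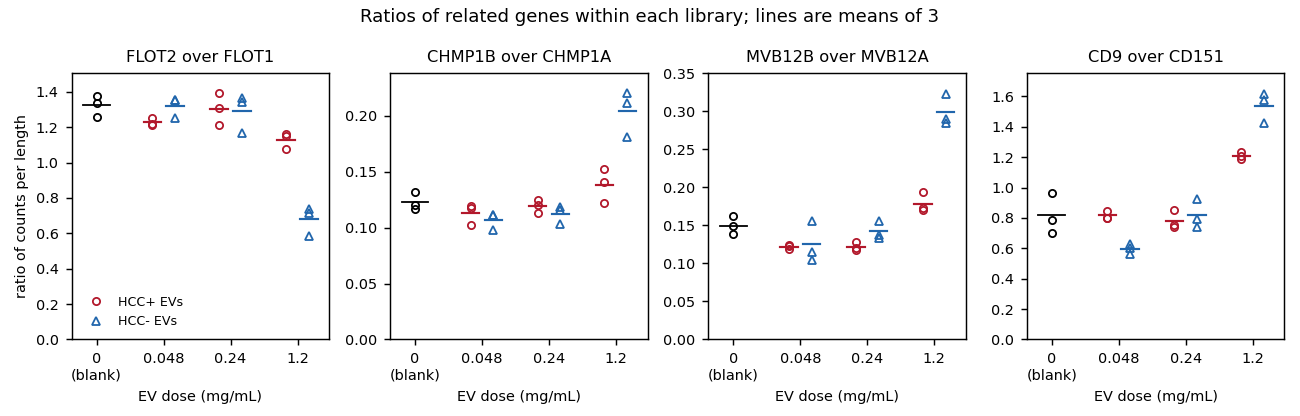
Ratio of 2 related genes in counts per length within each library, by EV dose (mg/mL), with black circles for the blank, red circles for HCC+ EVs, blue triangles for HCC- EVs and lines at means of 3 libraries; axes start at 0. At 1.2 mg/mL FLOT2 over FLOT1 was 0.582 to 0.738 with HCC- EVs, below the 1.26 to 1.38 of the blank, and the other 3 ratios were above those of the blank.

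HCC+ and HCC- EVs at 1.2 mg/mL were also set against each other directly. Of the 47 genes, 16 were higher and 6 lower with HCC+ than with HCC- EVs, where 35.3% of all tested genes were called (22.6% higher, 12.7% lower). The 6 lower ones were MVB12B, UBAP1, CHMP1B, CHMP7, IST1 and CAV1, all of which had risen with HCC- EVs against the blank. The 16 higher ones were HGS, STAM, VPS37C, MVB12A, CHMP2B, CHMP3, VTA1, SDC1, CD151, RAB27A, RAB27B, RAB11A, RAB35, RAB7A, FLOT2 and CLTC, and each but STAM and RAB27B had fallen with HCC- EVs against the blank. The split under total count scaling, which shifts the median log2 value of all tested genes (-0.16), was 7 higher and 15 lower, so the larger number of higher genes depends on the scaling. HGS, CHMP3, CD151, RAB11A, RAB7A, FLOT2 and CLTC were called higher and MVB12B, UBAP1, CHMP1B, CHMP7, IST1 and CAV1 lower under both scalings.

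The step from 0.24 to 1.2 mg/mL compares different libraries in each source, and the fit shares its estimate of the spread over all 21 libraries. With HCC+ EVs, 8 of the 47 genes were higher and 14 lower at 1.2 than at 0.24 mg/mL, where 29.2% of all tested genes were called (13.7% higher, 15.5% lower). With HCC- EVs, 13 were higher and 22 lower, where 51.8% of all tested genes were called (23.9% higher, 28% lower). UBAP1, SDCBP, CD9, CD82, SMPD3 and CAV1 were higher at 1.2 mg/mL in both sources. Another 13 genes were lower in both: HGS, VPS37C, MVB12A, VPS25, VPS36, CHMP2A, CHMP3, VTA1, SDC1, SDC4, CD151, RAB7A and FLOT2. Of these, VPS36 with HCC- EVs turned to log2 0.071 with total count scaling. STAM and RAB27B were higher and VPS28 was lower with HCC+ EVs and not called with HCC- EVs, 7 genes were higher and 9 lower with HCC- EVs and not called with HCC+ EVs, and none was called in opposite directions. The splits under total count scaling were 12 higher and 5 lower for HCC+ EVs and 19 higher and 10 lower for HCC- EVs, and without HCC+ 0.24 mg/mL replicate 2 the HCC+ count fell to 14.

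SMPD3 had 3.56, 3.21 and 3.10 CPM with HCC+ EVs at 1.2 mg/mL against 1.53, 1.85 and 1.27 CPM at 0.24 mg/mL, and 4.17, 3.82 and 4.55 CPM with HCC- EVs at 1.2 mg/mL against 1.61, 1.70 and 1.91 CPM at 0.24 mg/mL. The doses did not overlap in either source, and the log2 fold change was 1.09 ± 0.21 with HCC+ and 1.26 ± 0.20 with HCC- EVs. RAB27B had 6.70, 7.77 and 6.37 CPM with HCC+ EVs at 1.2 mg/mL against 3.49, 3.30 and 3.94 CPM at 0.24 mg/mL (log2 0.96 ± 0.18), and with HCC- EVs 5.56, 3.45 and 5.30 CPM against 4.80, 2.69 and 5.00 CPM, which overlapped (log2 0.21 ± 0.18, not called). CHMP3 had 36.3 ± 1.33 against 49.0 ± 1.67 CPM with HCC+ EVs (log2 -0.43 ± 0.08) and 20.4 ± 2.16 against 48 ± 2.02 CPM with HCC- EVs (log2 -1.24 ± 0.08).

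**Figure D4:**
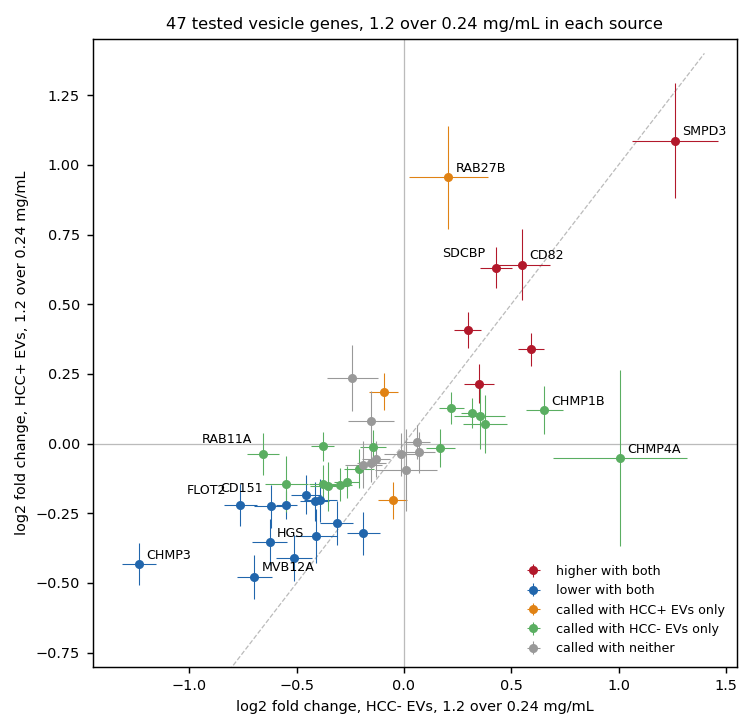
Log2 fold change of 1.2 over 0.24 mg/mL for HCC- EVs (x axis) and HCC+ EVs (y axis) of the 47 tested genes, with SE bars, colours by call and a dashed line of equal change. The 6 red genes were higher and the 13 dark blue genes lower at 1.2 mg/mL with both sources, and RAB27B lay far above the dashed line, at 0.96 with HCC+ and 0.21 with HCC- EVs.

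Whether the sources differed more at 1.2 than at 0.24 mg/mL was tested as a difference of differences. It was called for 14 of the 47 genes, 11 with a positive and 3 with a negative value, where 21.3% of all tested genes were called (15.1% positive, 6.26% negative). CHMP3 (log2 0.80 ± 0.11), RAB27B (log2 0.75 ± 0.26), RAB11A (log2 0.62 ± 0.11) and FLOT2 (log2 0.54 ± 0.11) had the largest positive values and CHMP1B (log2 -0.53 ± 0.12) the largest negative one. CHMP1B, CHMP3, RAB11A, FLOT2 and CLTC were called in every alternative tried. The split was 4 positive and 8 negative with total count scaling, and the count was 7 to 14 when single libraries were left out.

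At 0.24 mg/mL none of the 47 genes was called by edgeR with HCC+ or HCC- EVs against the blank, where 0.00511% and 0% of all tested genes were called, or between the sources, where 0% were called. DESeq2 called none in these 3 comparisons, and at an unadjusted p under 0.05 the counts of genes were 1, 0 and 0. The log2 fold changes against the blank were -0.18 to 0.22 with HCC+ EVs and -0.14 to 0.31 with HCC- EVs. HCC+ EVs at 0.048 mg/mL gave no called gene with edgeR or DESeq2 either, where 0% of all tested genes were called, with 3 of the 47 at an unadjusted p under 0.05.

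HCC- EVs at 0.048 mg/mL did give calls: 9 genes rose and 8 fell against the blank, where 16.4% of all tested genes were called (8.28% higher, 8.16% lower). The rises were CD151, MVB12A, VPS28, HGS, CHMP1A, SDC4, FLOT1, FLOT2 and RAB35, at log2 0.19 to 0.37, and the falls RAB27B, CHMP2B, STAM2, RAB11A, SDCBP, VTA1, STAM and CLTC, at log2 -0.19 to -0.66. CD151 had 244, 234 and 224 CPM with HCC- EVs at 0.048 mg/mL against 165, 214 and 164 CPM in the blank, and RAB27B had 2.35, 2.42 and 2.96 CPM with HCC- EVs against 4.30, 3.96 and 3.92 CPM in the blank. HGS, MVB12A, CD151, RAB35 and FLOT2 were higher at 0.048 mg/mL and lower at 1.2 mg/mL against the same blank, and SDCBP was lower at 0.048 and higher at 1.2 mg/mL.

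These changes ran with the base composition of the genes. Across the 47 genes, which share these libraries, the log2 fold change with HCC- EVs at 0.048 mg/mL had a Pearson r of 0.863 with the GC content of the transcripts, and of 0.0804 once trends with GC content and length, set over all genes in each library, were removed. The median log2 fold change was 0.19 for the 24 genes with at least 50% GC and -0.17 for the 23 below. With the trends removed 0 of the 47 genes were called, and 0 were called without blank replicate 1, 0 without blank replicate 3 and 30 without blank replicate 2. At 1.2 mg/mL the r with GC content was 0.0285 with HCC+ and 0.0892 with HCC- EVs. With the trends removed it was -0.316 with HCC+ and -0.257 with HCC- EVs at 1.2 mg/mL. The median with HCC- EVs was then -0.26 for genes with at least 50% GC and 0.05 for those below. As fitted these medians were -0.11 and -0.17. The part of GC content in the values at either dose, and of single blank libraries in the calls at 0.048 mg/mL, was not tested.

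**Figure D5:**
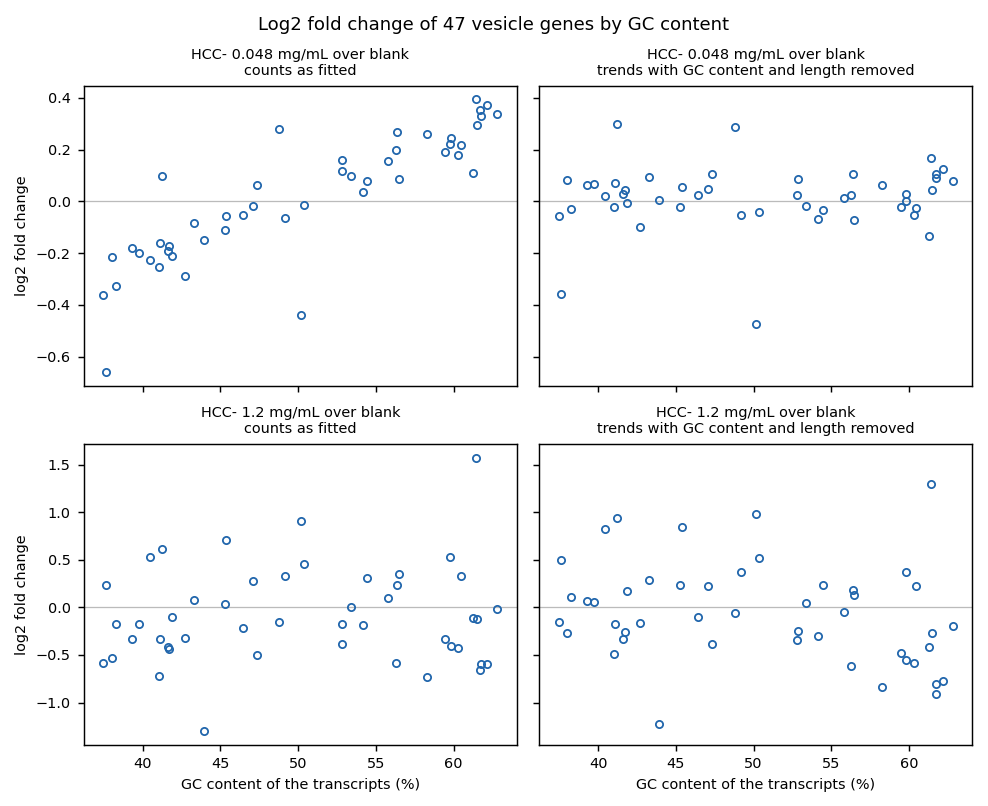
Log2 fold change of the 47 tested genes against the GC content of their transcripts (%), for HCC- EVs over blank at 0.048 mg/mL (top) and 1.2 mg/mL (bottom), as fitted (left) and after removal of GC and length trends (right). The top left panel rises with GC content (r = 0.863) and the top right panel does not (r = 0.0804). In the bottom panels r was 0.0892 (left) and -0.257 (right).

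HCC+ over HCC- EVs at 0.048 mg/mL was called for MVB12A (log2 -0.32 ± 0.08) and CD151 (log2 -0.37 ± 0.08), both lower with HCC+ EVs, where 3.54% of all tested genes were called (1.08% higher, 2.46% lower). MVB12A had 48.7, 45.2 and 45.9 CPM with HCC+ EVs and 61.7, 57.9 and 55.2 CPM with HCC- EVs, and CD151 had 191, 179 and 173 CPM with HCC+ EVs and 244, 234 and 224 CPM with HCC- EVs. Neither gene overlapped between the sources. The r with GC content was -0.769 here, and no gene was called with the trends removed or without HCC+ replicate 2 or 3 or HCC- replicate 1 or 2. DESeq2 called 15 genes (2 higher, 13 lower), and the fit on only these 2 groups called 22 (6 higher, 16 lower).

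The stretches before the start sites of some of the genes that moved at 1.2 mg/mL are shown for 3 short motifs, searched on both strands in 300-base promoters from RefSeq (GRCh38.p14, 250 bases before to 50 after the start), which were held for 37 of the 48 genes. CCAAT was found in 9 of the 37 genes and in 39.7% of all genes with a promoter. With HCC- EVs at 1.2 mg/mL, UBAP1, CHMP4A, IST1 and CD9 of these 9 rose and HGS, MVB12A and RAB27A fell. VPS37B and VPS4B, the others with CCAAT, were not called. TGACTCA, the motif of AP-1, was found in 3 (IST1, RAB27B and FLOT2) and in 6.05% of all genes, and CACGTG, the core bound by MiT/TFE factors, in 4 (VPS37B, VPS36, CHMP4A and PDCD6IP) and in 8.77% of all genes. Genes with several promoters count once. A promoter is printed for CD9 and UBAP1, which rose with both sources, and for RAB27B, which rose with HCC+ EVs, with the motif, or its reverse complement where it lies on the other strand, in capitals. The lines run 5′ to 3′ on the plus strand, at chr12:6199696-6199995, chr9:34178793-34179092 and chr18:54828227-54828526. Only promoters with a match are printed: the other promoters of CD9 held no CCAAT and the other promoter of RAB27B no TGACTCA. The promoters of CAV1, which also rose with both sources, held no CCAAT. A match describes the sequence and is no evidence of binding.
CD9: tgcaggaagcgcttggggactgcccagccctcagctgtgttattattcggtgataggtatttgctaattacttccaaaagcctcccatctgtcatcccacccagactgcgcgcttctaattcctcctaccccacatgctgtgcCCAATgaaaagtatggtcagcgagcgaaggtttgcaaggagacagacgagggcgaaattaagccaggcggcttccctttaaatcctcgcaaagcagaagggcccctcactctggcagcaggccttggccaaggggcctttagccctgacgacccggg
UBAP1: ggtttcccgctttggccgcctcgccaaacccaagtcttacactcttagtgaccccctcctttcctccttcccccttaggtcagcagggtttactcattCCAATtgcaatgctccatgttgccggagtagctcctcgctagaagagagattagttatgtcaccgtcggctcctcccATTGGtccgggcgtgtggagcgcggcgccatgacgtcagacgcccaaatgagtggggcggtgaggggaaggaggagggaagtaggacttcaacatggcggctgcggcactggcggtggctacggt
RAB27B: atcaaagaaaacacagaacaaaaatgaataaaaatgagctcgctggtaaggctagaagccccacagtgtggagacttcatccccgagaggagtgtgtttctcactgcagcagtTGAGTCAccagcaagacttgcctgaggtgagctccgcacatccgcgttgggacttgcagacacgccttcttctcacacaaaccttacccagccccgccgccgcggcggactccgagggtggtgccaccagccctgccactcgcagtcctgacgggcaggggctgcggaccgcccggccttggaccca

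Other genes of these pathways were counted on lists made by name. Of 30 ESCRT partners, 6 rose and 5 fell with HCC+ EVs and 9 rose and 11 fell with HCC- EVs against the blank, which is 36.7% and 66.7% of the list beside 33% and 53.3% of all tested genes. NEDD4, a ubiquitin ligase, fell most with both, at log2 -0.72 ± 0.09 with HCC+ and -1.27 ± 0.09 with HCC- EVs, followed by ANXA7, an annexin, at log2 -0.53 ± 0.06 with HCC+ and -0.97 ± 0.06 with HCC- EVs. CEP55, which recruits ESCRT proteins to the midbody of dividing cells, fell with HCC- EVs, at log2 -0.78 ± 0.08, and was higher with HCC+ than with HCC- EVs by log2 0.80 ± 0.08. VPS37D, a further ESCRT-I subunit, rose with both (log2 0.50 ± 0.15 with HCC+ and 0.84 ± 0.15 with HCC- EVs), as did CC2D1A and CC2D1B, which regulate CHMP4, at log2 0.50 and 0.42 with HCC+ and 0.30 and 0.54 with HCC- EVs. The list also held ALG2, a mannosyltransferase that is no ESCRT partner. Under total count scaling 13 partners were called higher and 3 lower with HCC+ EVs, and 16 higher and 5 lower with HCC- EVs.

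Of 36 RAB27 effectors, SNAREs and other genes of vesicle release, 14 rose and 4 fell with HCC+ EVs and 12 rose and 13 fell with HCC- EVs, beside 15.6% higher and 17.4% lower with HCC+ EVs and 24.8% higher and 28.5% lower with HCC- EVs over all tested genes. SYTL2, a RAB27 effector of vesicle docking, rose with both, by log2 0.97 ± 0.13 with HCC+ and 0.79 ± 0.13 with HCC- EVs, and MLPH, a RAB27 effector of organelle transport, fell with both, at log2 -0.47 ± 0.09 with HCC+ and -1.24 ± 0.09 with HCC- EVs. UNC13D, which primes vesicles for fusion, rose with HCC+ EVs by log2 0.84 ± 0.15 and was higher with HCC+ than with HCC- EVs by log2 0.63 ± 0.14. Of 20 tested genes of clathrin coats and caveolae, 6 rose and 3 fell with HCC+ EVs, 3 rose and 12 fell with HCC- EVs, and 13 were higher and 0 lower with HCC+ than with HCC- EVs, where 22.6% of all tested genes were higher and 12.7% lower. Under total count scaling the coat genes gave 9 higher and 3 lower with HCC+ EVs, 7 higher and 5 lower with HCC- EVs, and 9 higher and 2 lower for HCC+ over HCC- EVs, and the RAB27 list gave 17 higher and 2 lower with HCC+ EVs and 19 higher and 6 lower with HCC- EVs. CLTB, a clathrin light chain, fell, at log2 -0.33 ± 0.08 with HCC+ and -0.77 ± 0.08 with HCC- EVs, and CAVIN1, the partner of CAV1 in caveolae, rose by log2 0.34 ± 0.06 with HCC+ and 0.45 ± 0.06 with HCC- EVs.

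Markers of other cell types were read beside these results, since the EVs came from serum. The platelet genes PPBP and PF4, the leukocyte genes S100A8, S100A9 and FCGR3A and the hepatocyte gene APOB had 0 counts in all 21 libraries. The summed level of the 10 leukocyte markers was 3.63 to 5.13 CPM with HCC+ EVs at 1.2 mg/mL, 5.95 to 8.34 CPM with HCC- EVs at 1.2 mg/mL and 1.83 to 1.95 CPM in the blank. That of the 4 endothelial markers was 2.90 to 3.67 CPM with HCC+ EVs, 5.86 to 7.88 CPM with HCC- EVs and 0.640 to 0.846 CPM in the blank, and that of the 7 platelet markers 20.4 to 22.1 CPM with HCC+ EVs, 13.3 to 16.4 CPM with HCC- EVs and 27.5 to 31.7 CPM in the blank. The 7 hepatocyte markers summed to 3.17 to 3.78 CPM with HCC+ EVs, 2.32 to 3.36 CPM with HCC- EVs and 2.00 to 2.54 CPM in the blank, and the 5 fibroblast markers, of which LUM had 0 counts, to 21.3 to 30.8 CPM with HCC+ EVs, 28.6 to 34.6 CPM with HCC- EVs and 14.2 to 17.7 CPM in the blank. PPBP, PF4 and GP9 did not pass the low-count filter. Of the other platelet markers only NRGN was called with HCC+ EVs at 1.2 mg/mL, lower at log2 -0.59 ± 0.10. COL1A1 was the only fibroblast marker to pass the filter, and it rose with HCC+ EVs, at log2 0.75 ± 0.11. These sums are therefore no measure of a whole marker list. The part of all these marker transcripts in the levels of the vesicle genes was not tested.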

How the data were processed

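Poly(A) RNA of 21 HCT-116 libraries was sequenced, and the authors deposited 1 table of raw counts per gene and library. The submitters' processing notes name cutadapt 3.4, HISAT2 2.2.1, featureCounts 2.0.1 and the build GRCh38, with strand and multimapping choices not given in the sources used here. All else was computed from the counts.

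Counts were scaled with TMM factors and fitted with edgeR 4.0.16 (quasi-likelihood, robust, filterByExpr) in R 4.3.3 as 7 group means over 21 libraries with 14 residual degrees of freedom, and p-values were Benjamini-Hochberg adjusted over 19556 tested genes, which hold 99.96% of the counts. Alternatives were DESeq2 1.42.0, other scalings, no filter, only the groups compared, a replicate block, removal of GC and length trends (splines set by 12231 genes) and leaving out each library. The fit was tested on simulated data. TPM used the deposited gene lengths.

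Members and lists were chosen with earlier results of these data known. Named were up to 12 rising and 12 falling members at 1.2 mg/mL, members called at lower doses, the highest and lowest TPM of each role, and the leading companion genes, and not every one has its value in each library printed. Libraries with the same replicate number showed no strong shared deviation: of 63 such pairs, 1 had a correlation over 0.1. Of the 21 libraries, 9 lay closest to those of their own number. These values cannot show whether the numbers mark shared cultures or batches.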

Additional observations from a re-analysis of the deposited data

Results flagged for a closer look

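For 14 vesicle genes the difference between HCC+ and HCC- EVs was not the same at 1.2 as at 0.24 mg/mL, by edgeR's test of the difference itself at an adjusted p under 0.05. The values, on the log2 scale as HCC+ over HCC- at 1.2 mg/mL minus the same at 0.24 mg/mL, were positive for CHMP3 (0.80 ± 0.11), RAB27B (0.75 ± 0.26), RAB11A (0.62 ± 0.11), FLOT2 (0.54 ± 0.11), RAB27A (0.48 ± 0.17), CD151 (0.40 ± 0.11), CHMP2B (0.40 ± 0.14), CLTC (0.37 ± 0.07), RAB7A (0.33 ± 0.07), STAM (0.28 ± 0.10) and VTA1 (0.27 ± 0.10). They were negative for CHMP1B (-0.53 ± 0.12), CAV1 (-0.26 ± 0.09) and IST1 (-0.21 ± 0.07).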

How the results depend on the processing

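With 3 libraries a group, of the genes called, 10 of 16 (HCC+ EVs at 1.2 mg/mL over blank), 21 of 35 (HCC- EVs at 1.2 mg/mL over blank), 10 of 22 (HCC+ over HCC- EVs at 1.2 mg/mL) and 0 of 17 (HCC- EVs at 0.048 mg/mL over blank) were called in the same direction in every alternative, left-out libraries included. With GC and length trends removed the count was 28 with HCC+ EVs at 1.2 mg/mL, 0 with HCC- EVs at 0.048 mg/mL and 0 for HCC+ over HCC- EVs at 0.048 mg/mL. Fitted on only the groups compared, the last 2 counts were 11 and 22, and HCC+ over HCC- EVs at 0.048 mg/mL also gave 15 with DESeq2, 6 with no filter and 4 with the replicate block, against 2. The block gave 16, 35, 22 and 17 genes in the comparisons listed first, and the pairing was not established. Leaving out single libraries gave 13 to 19, 31 to 35, 17 to 24 and 0 to 30 in those comparisons, 0 to 3 for HCC+ over HCC- EVs at 0.048 mg/mL, 14 to 18 and 32 to 34 for 1.2 over 0.24 mg/mL with HCC+ and with HCC- EVs, and 7 to 14 for the difference of differences. For HCC- EVs at 0.048 mg/mL the count was 9, 5 and 8 without HCC- replicate 1, 2 or 3, and 0, 30 and 0 without blank replicate 1, 2 or 3. The difference of differences gave 7 genes without HCC- 0.24 mg/mL replicate 1, 8 without HCC+ 1.2 mg/mL replicate 2, HCC+ 0.24 mg/mL replicate 2 or HCC- 1.2 mg/mL replicate 3, and 9 without HCC+ 1.2 mg/mL replicate 3, HCC+ 0.24 mg/mL replicate 1 or 3 or HCC- 0.24 mg/mL replicate 3, against 14. Directions turned with total count scaling for TSG101 (0.070), SNF8 (0.10) and VPS4A (0.10) with HCC- EVs at 1.2 mg/mL over blank and for VPS36 (0.071), CHMP1A (0.049) and VPS4A (0.12) at 1.2 over 0.24 mg/mL with HCC- EVs. They turned with the trends removed for CHMP5 (0.072) with HCC- EVs at 1.2 mg/mL and for VTA1 (0.082), SDCBP (0.021), RAB35 (-0.023) and CLTC (0.028) with HCC- EVs at 0.048 mg/mL. The causes of these shifts were not tested.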

Other observations

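Further genes of the same membranes were counted on lists made by name. Over all tested genes, 15.6% rose and 17.4% fell with HCC+ EVs at 1.2 mg/mL against the blank, and 24.8% rose and 28.5% fell with HCC- EVs. Of 22 tested genes on a list of other tetraspanins and their partners, 10 rose and 1 fell with HCC+ EVs and 9 rose and 7 fell with HCC- EVs. PTGFRN, IGSF8, ADAM10 and EPCAM on this list are not tetraspanins, and IGSF8 and ADAM10 are among the rises with HCC+ EVs and EPCAM among the falls with HCC- EVs. TSPAN1 rose with both, by log2 1.24 ± 0.17 with HCC+ and 0.95 ± 0.17 with HCC- EVs, and TSPAN31 more with HCC- EVs (log2 0.36 ± 0.13 with HCC+ and 1.13 ± 0.12 with HCC- EVs, and -0.76 ± 0.12 for HCC+ over HCC- EVs, which was called). CD53 rose with HCC- EVs by log2 2.71 ± 1.06 and was not called with HCC+ EVs (log2 0.66 ± 1.18). TSPAN4, known from migrasomes, fell with both, at log2 -0.48 ± 0.10 with HCC+ and -1.11 ± 0.11 with HCC- EVs. CD63, a tetraspanin of late endosomes and a common EV marker, had 190.0 ± 3.27 CPM with HCC+ EVs, 145 ± 9.0 CPM with HCC- EVs and 176 ± 10.4 CPM in the blank, was called lower with HCC- EVs against the blank, and was higher with HCC+ than with HCC- EVs by log2 0.39 ± 0.06. This list gave, under total count scaling, 14 higher and 1 lower with HCC+ EVs and 13 higher and 2 lower with HCC- EVs.

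Of 16 genes of sphingomyelin and ceramide metabolism, 3 rose and 2 fell with HCC+ EVs and 5 rose and 7 fell with HCC- EVs, which is 31.2% and 75% of the list beside 33% and 53.3% of all tested genes. SGMS2, a sphingomyelin synthase, fell with both, at log2 -0.33 ± 0.10 with HCC+ and -1.15 ± 0.10 with HCC- EVs, and SPHK2, a sphingosine kinase, rose with both, by log2 0.44 ± 0.13 with HCC+ and 1.19 ± 0.13 with HCC- EVs. Of 19 genes of syndecans, glypicans and heparan sulfate, 8 rose and 2 fell with HCC+ EVs and 6 rose and 6 fell with HCC- EVs, which is 52.6% and 63.2% of the list. The largest called rise of this list with HCC+ EVs was that of the glypican GPC3, at log2 1.24 ± 0.35. SULF2, an extracellular heparan 6-O-endosulfatase, rose by log2 0.86 ± 0.10 with HCC+ and 0.93 ± 0.10 with HCC- EVs, and XYLT1, which starts the sugar chain, by log2 0.86 ± 0.10 with HCC+ and 0.68 ± 0.10 with HCC- EVs. Under the same scaling the ceramide list gave 8 higher and 0 lower with HCC+ EVs and 7 higher and 1 lower with HCC- EVs, and the heparan sulfate list 10 higher and 0 lower with HCC+ EVs and 11 higher and 0 lower with HCC- EVs.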
